A study of Homo sapiens with 12 samples.

Results

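The epidermal growth factor receptor EGFR, its partner ERBB3, the ligands that bind them and a feedback inhibitor were followed at the mRNA level. The cells were 6 established lines, which the study describes as ovarian cancer (OC) lines. Each was treated with vehicle or with quinacrine (QC), an acridine drug first used against malaria. The genes were chosen by name and are 9 of the 60669 Ensembl IDs in the count table: EGFR and ERBB3, the ligands AREG, EREG, HBEGF, TGFA, BTC and NRG1, and the inhibitor ERRFI1. All 9 were among the 18720 genes that passed the filter on low counts.

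The lines form 3 isogenic families, each of a chemosensitive line and a resistant partner: HeyA8 with HeyA8-MDR, SK-OV-3 with SK-OV-3-TR, and OV2008 with C13. The study's methods call HeyA8-MDR carboplatin resistant, SK-OV-3-TR taxol resistant and C13 cisplatin resistant. Each line gave 1 vehicle library and 1 library after 6 h with 8 µM QC, so the lines serve as the replicates and none has a second library of the same treatment. Each resistant line is a single derivative of its parent. HeyA8 and HeyA8-MDR were grown in DMEM but the other lines in RPMI-1640, so that family and medium cannot be told apart for HeyA8.

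EGFR and ERBB3 belong to the ERBB receptors, together with ERBB2 (HER2) and ERBB4. Their ligands are made as membrane proteins, are released by proteases such as ADAM17, and draw the receptors into pairs that signal through RAS, ERK and AKT. AREG and TGFA bind EGFR, HBEGF, EREG and BTC bind EGFR and ERBB4, and NRG1 binds ERBB3 and ERBB4. ERBB3 has little kinase activity and signals through its partners, whereas ERBB2 has no known ligand. ERRFI1, also called MIG6, is induced by the pathway and blocks the EGFR kinase. Tumour cells often make both ligand and receptor, and the family is a known drug target in epithelial cancers.

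Total counts per library ran from 17782556 to 30585059. Levels are given as CPM, the counts as a share of the TMM-scaled library, and levels of different genes are compared as CPM per kb of exon. Before the comparisons, each QC library was placed between its own line and the isogenic partner, by genes at least 8-fold apart between the vehicle libraries with at least 100 counts in the higher. The HeyA8 QC library lay 36.7% of the way to HeyA8-MDR in the median of 63 genes higher there and 53.0% in that of 121 lower genes. In the other 5 QC libraries these medians were 0.0% to 3.0% and 7.59% to 33.7%. The HeyA8 QC library thus stood apart, and the QC results below are also given without HeyA8 where it matters.

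Lineage markers differed between families. Of 6 Mullerian markers, PAX8 and SOX17 were lower in OV2008 and C13 than in all other lines, PAX8 at 7.55 to 24.7 CPM against 254 to 379 in the HeyA8 and 234 to 479 in the SK-OV-3 family. MUC16 and FOLR1 were higher there than in the HeyA8 family but within the range of the SK-OV-3 family, WT1 was lower than in the HeyA8 family and overlapped the SK-OV-3 family, and MSLN overlapped both. The 6 squamous markers were all above 1 CPM in OV2008 and C13 and summed to 2875 to 14240 CPM there, against at most 51.3 in the SK-OV-3 and 0.266 in the HeyA8 family. Of 6 general epithelial markers, 5 were higher in OV2008 and C13 than in all other lines, among them E-cadherin (CDH1) at 308 to 522 CPM against at most 0.221 in the HeyA8 family. KRT7 was lower, at 13.8 to 26.9 CPM against 414 to 729 in the HeyA8 family, where KRT8 reached 1054 CPM. Of 6 mesenchymal markers, vimentin (VIM) and FN1 were lower in OV2008 and C13 than elsewhere, VIM at 0.224 to 1.96 CPM against 7902 to 11910 in the HeyA8 family, and the other 4 overlapped at least 1 other family. The 4 leukocyte markers summed to at most 0.726 CPM. The ovarian origin of OV2008 and C13 rests on the study's description and was not tested. These marker sets move with the family comparisons below, and their part in them was not tested.

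AREG and EREG set OV2008 and C13 apart more than any other member, and BTC lies in the same stretch of chromosome 4, so the promoters of these 3 ligands are shown. They are RefSeq sequences of GRCh38.p14, 250 bases before the start and 50 from it on, 5′ to 3′ on the gene's strand. Capitals mark matches on either strand to a cyclic AMP response element, an AP-1 site, a TATA box, a TEAD site or an E-box, whose letters are given after the sequences.
AREG, chr4:74444886-74445185, plus strand: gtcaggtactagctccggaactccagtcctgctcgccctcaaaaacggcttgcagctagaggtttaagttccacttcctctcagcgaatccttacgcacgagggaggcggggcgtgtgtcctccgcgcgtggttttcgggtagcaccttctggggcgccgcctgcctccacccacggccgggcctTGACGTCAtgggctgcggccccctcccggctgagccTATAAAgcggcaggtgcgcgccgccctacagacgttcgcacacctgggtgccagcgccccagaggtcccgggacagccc
EREG, chr4:74364895-74365194, plus strand: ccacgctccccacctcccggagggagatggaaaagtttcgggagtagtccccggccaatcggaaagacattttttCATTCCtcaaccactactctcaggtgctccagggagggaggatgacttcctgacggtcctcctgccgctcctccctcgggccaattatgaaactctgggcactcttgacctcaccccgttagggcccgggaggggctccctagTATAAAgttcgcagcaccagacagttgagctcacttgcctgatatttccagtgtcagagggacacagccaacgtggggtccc
BTC, chr4:74794474-74794773, minus strand: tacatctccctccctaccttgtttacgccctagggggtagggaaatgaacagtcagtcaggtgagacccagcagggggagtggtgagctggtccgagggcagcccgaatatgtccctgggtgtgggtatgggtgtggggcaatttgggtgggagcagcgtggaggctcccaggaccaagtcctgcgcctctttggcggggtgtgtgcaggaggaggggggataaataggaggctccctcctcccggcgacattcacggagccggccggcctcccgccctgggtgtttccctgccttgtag

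The letters searched were TGACGTCA for the cyclic AMP response element. For the TATA box they were TATAAA. In AREG the former began at offset -65 and the latter at -29 from the start base. Of 35116 RefSeq windows of this length, 1.85% held the first motif and 11.5% the second. EREG had a TATA box at -32 and a TEAD match at -175 on the opposite strand, whose letters GGAATG were held by 14% of windows. BTC had none of the 5 motifs. No AP-1 match (TGANTCA), held by 7.71% of windows, was in any of the 3. The same was true of an E-box (CACGTG), held by 7.26% of windows. GC content was 66.3% in AREG, 57.7% in EREG and 63.0% in BTC, beside a median of 58.7%. These matches describe letters and show no binding. Promoters of 7 of the 9 members were in the RefSeq table.

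On the same build, EREG (ENSG00000124882.4) lies at chr4:74365145-74388749, AREG (ENSG00000109321.11) follows 56.4 kb later at chr4:74445136-74455005, and BTC (ENSG00000174808.12) 289.8 kb beyond it at chr4:74744759-74794523. The other members are spread over the genome, with EGFR (ENSG00000146648.18) at chr7:55019017-55211628, ERBB3 (ENSG00000065361.16) at chr12:56080108-56103505, HBEGF (ENSG00000113070.8) at chr5:140332843-140346603, TGFA (ENSG00000163235.16) at chr2:70447284-70553826, NRG1 (ENSG00000157168.20) at chr8:31639245-32774046 and ERRFI1 (ENSG00000116285.13) at chr1:8011727-8026309.

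Receptor levels differed between families. In bulk RNA, fewer cells that express a gene and less RNA per cell cannot be told apart. EGFR with vehicle was at 1609 CPM in HeyA8, 1048 in HeyA8-MDR, 665 in OV2008, 325 in SK-OV-3-TR, 287 in C13 and 184 in SK-OV-3, and with QC at 1197, 929.9, 749, 229.6, 313 and 184 CPM in the same lines. All 4 HeyA8 family libraries were above the other 8. The share of all genes that separate a family without overlap was not counted, so such separation, here and below, only describes the values. Over both treatments SK-OV-3-TR and C13 overlapped, and no other neighbours in this order did.

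ERBB3 had a different order. With vehicle it was at 37.5 CPM in OV2008, 26.4 in C13, 20.4 in SK-OV-3-TR, 7.23 in SK-OV-3, 0.726 in HeyA8-MDR and 0.487 in HeyA8, and with QC at 50.2, 40.2, 15.1, 6.48, 0.887 and 0.657 CPM. The families did not overlap, whereas OV2008 and C13 did. The HeyA8 family values rest on 11 to 18 counts per library, and the vehicle ratio of HeyA8-MDR to HeyA8, 1.49, had a 95% counting interval of 0.629 to 3.63. Over the 12 libraries, the log2 levels of EGFR and ERBB3 had Pearson's r = -0.610.

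Per kb of exon, EGFR exceeded the other ERBB receptors in the HeyA8 and OV2008 families, with vehicle at 101 CPM per kb in HeyA8 and 41.7 in OV2008, beside 6.41 and 12.8 for ERBB2. In SK-OV-3, a line known for ERBB2 amplification, ERBB2 was at 825 CPM per kb and EGFR at 11.6, and in SK-OV-3-TR they were at 389.5 and 20.4. ERBB3 was below EGFR in every library, at 3.20 CPM per kb in OV2008, 1.75 in SK-OV-3-TR and 0.0416 in HeyA8. ERBB4 was at 5.91 CPM per kb in SK-OV-3-TR and 0.597 in SK-OV-3, and at most 0.0688 in the other lines.

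AREG was at 109.7 CPM in C13, 67.4 in OV2008, 3.79 in HeyA8-MDR, 2.65 in HeyA8, 1.68 in SK-OV-3-TR and 1.17 in SK-OV-3 with vehicle, and at 232, 189.9, 3.55, 2.88, 1.32 and 3.26 CPM with QC. EREG was at 43.9 CPM in C13, 33.4 in OV2008, 1.24 in HeyA8, 0.501 in SK-OV-3 and 0.311 in HeyA8-MDR with vehicle, and at 61.5, 63.0, 0.803, 0.453 and 0.473 CPM with QC. SK-OV-3-TR had 0 EREG counts with vehicle and 2 with QC. No library of OV2008 or C13 overlapped any other for these ligands, again without a count of how many of all genes do so. The order of the remaining lines rests on at most 79 AREG and 28 EREG counts per library, and SK-OV-3 overlapped HeyA8 and SK-OV-3-TR for AREG and HeyA8-MDR for EREG.

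**Figure D1:**
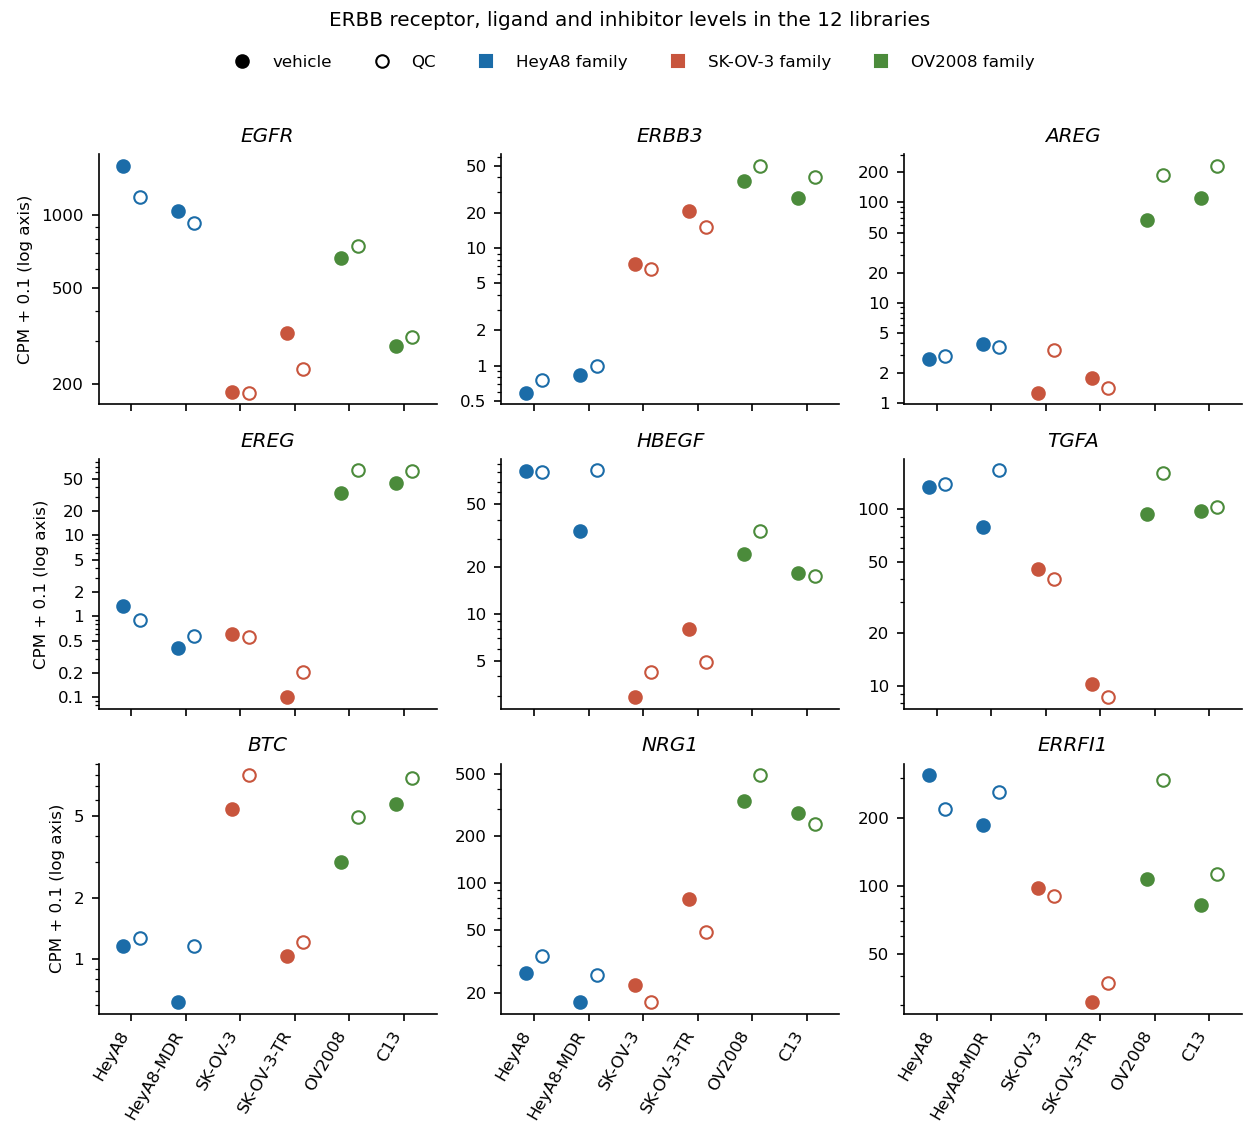
CPM of the 9 members in the 12 libraries, 1 panel per gene, with lines on the horizontal axis and a log vertical axis. Symbols tell vehicle from QC libraries and colours the families. AREG and EREG are high in OV2008 and C13, EGFR is highest in the HeyA8 family, and ERBB3 is lowest there.

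NRG1, the ligand of ERBB3, was likewise highest with vehicle in OV2008 (336 CPM) and C13 (281), followed by SK-OV-3-TR (79.0), HeyA8 (26.8), SK-OV-3 (22.4) and HeyA8-MDR (17.3). HBEGF was at 81.5 CPM in HeyA8, 33.9 in HeyA8-MDR, 24.1 in OV2008, 18.1 in C13, 7.87 in SK-OV-3-TR and 2.84 in SK-OV-3. TGFA was at 134 CPM in HeyA8, 98.0 in C13, 93.3 in OV2008 and 79.5 in HeyA8-MDR, but only at 45.6 in SK-OV-3 and 10.1 in SK-OV-3-TR. The QC libraries of HeyA8, C13, OV2008 and HeyA8-MDR, at 139, 103, 160.2 and 166 CPM, turned the TGFA order of these lines, which is therefore not resolved. HBEGF with QC was at 79.95 CPM in HeyA8 and 82.2 in HeyA8-MDR, so the order of these lines is not resolved either. BTC was low throughout, with C13 at 5.62 CPM, SK-OV-3 at 5.35, OV2008 at 2.91, HeyA8 at 1.06, SK-OV-3-TR at 0.944 and HeyA8-MDR at 0.519.

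The inhibitor ERRFI1 was at 307 CPM in HeyA8, 186 in HeyA8-MDR, 108 in OV2008, 97.5 in SK-OV-3, 82.6 in C13 and 30.7 in SK-OV-3-TR with vehicle. With QC it was highest in OV2008, at 291 CPM, beside 259 in HeyA8-MDR and 219 in HeyA8. Over the 12 libraries its log2 level went with TGFA (r = 0.905), HBEGF (0.781) and EGFR (0.769). AREG went with EREG (r = 0.962) more closely than with BTC (0.578), EGFR with HBEGF (0.936), and ERBB3 with NRG1 (0.805). These values describe 12 libraries that share 6 lines and 3 families. The SD of log2 levels over the vehicle libraries put EREG, AREG and ERBB3 at the 97.1, 92.7 and 91.5 percentile of the genes tested, and ERRFI1, the least spread member, at 60.9.

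The makeup of the ligand pool, per kb of exon, differed by family. TGFA and HBEGF made up 47.0% and 47.0% of the summed level of the 6 ligands in HeyA8 with vehicle, and 52.4% and 36.7% in HeyA8-MDR. AREG made up 45.2% in OV2008 and 57.7% in C13 with vehicle, and 59.2% and 73.3% with QC. In SK-OV-3 TGFA led with 65.8%, whereas in SK-OV-3-TR NRG1 made up 37.8% and TGFA 21.1%. The summed level with vehicle was 116 CPM per kb in C13, 90.8 in OV2008, 58.0 in HeyA8, 30.9 in HeyA8-MDR, 14.1 in SK-OV-3 and 9.76 in SK-OV-3-TR. The exon length of NRG1 joins many isoforms, which lowers its level per kb. In CPM, NRG1 was above AREG with vehicle in OV2008 (336 against 67.4) and C13 (281 against 109.7). With QC it was at 491.9 against 189.9 and 238.4 against 232.3 CPM. Which ligand leads in these lines therefore depends on the length used.

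**Figure D2:**
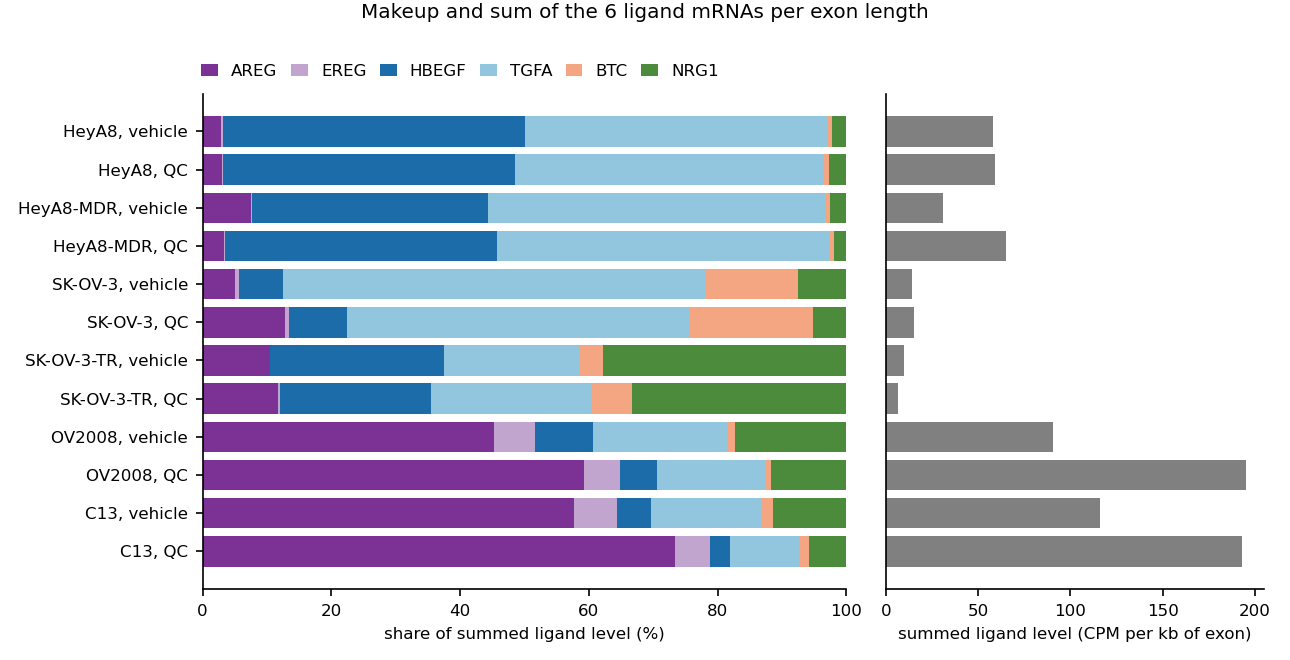
Share of each ligand in the summed ligand level (percent of CPM per kb of exon) and the summed level itself (CPM per kb), 1 bar per library. Per kb, AREG leads in OV2008 and C13, where NRG1 is higher in CPM. TGFA and HBEGF lead in the HeyA8 family, and the SK-OV-3 family has the lowest sums, from 6.87 to 15.4 CPM per kb.

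Each family was compared with the mean of the others in the vehicle libraries. Its replicates are a parent and its own derivative and are not independent. In the OV2008 family AREG, EREG, ERBB3 and NRG1 were higher, 4 of 9 members with an adjusted p under 0.05 by edgeR's quasi-likelihood test, beside 9.78% of all genes. The log2 fold change was 5.32 ± 0.353 (standard error) for AREG (adjusted p = 0.00546, edgeR), 7.09 ± 1.05 for EREG (0.0198), 3.56 ± 0.554 for ERBB3 (0.0213) and 3.21 ± 0.533 for NRG1 (0.0247). The size for EREG depends on the default prior count of the edgeR fit, because SK-OV-3-TR had no EREG count with vehicle. BTC was at 1.76 ± 0.892 (adjusted p = 0.250, edgeR), and at 0.24 without C13 and 2.93 without OV2008. The median over the 9 members, which is this BTC value, was 1.76, beside -0.05 over all genes.

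With OV2008 or C13 left out the family has 1 line, and 0 and 0 of all 18720 genes were called by edgeR, members included, against 1830, with 3296 and 3149 at an unadjusted p under 0.05. AREG was then at 5.38 and 5.25 (adjusted p = 0.0773 and 0.0898, edgeR). Without HeyA8, ERBB3 and EREG were at 3.54 and 7.17 and not called (adjusted p = 0.0630 and 0.0522, edgeR), in a fit that called 840 genes.

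In the HeyA8 family ERBB3 and AREG were lower and ERRFI1 higher, 3 of 9 members beside 7.57% of all genes. The log2 fold change was -5.11 ± 0.733 for ERBB3 (adjusted p = 0.0168, edgeR), -1.78 ± 0.378 for AREG (0.0462) and 1.72 ± 0.337 for ERRFI1 (0.0379). AREG in these lines was above the SK-OV-3 family vehicle libraries and below OV2008 and C13, and the contrast is against the mean of both. EGFR at 1.91 ± 0.443, HBEGF at 2.41 ± 0.601 and NRG1 at -2.44 ± 0.626 did not pass (adjusted p = 0.0580, 0.0696 and 0.0744, edgeR). These 3 were called without SK-OV-3 (0.0310, 0.0467 and 0.00611) and without SK-OV-3-TR (0.00757, 0.00915 and 0.0229). Those fits also called more of all genes, 2028 and 1931 against 1418. No member was called without HeyA8, HeyA8-MDR or OV2008, where 142, 386 and 307 of all genes were, against 1418. AREG and ERRFI1 were not called without C13 (adjusted p = 0.172 and 0.0923, edgeR), where 393 genes were. ERRFI1 was also not called with library size alone (0.0609) or in the QC libraries (0.0941). Over the fits without 1 line EGFR ran from 1.56 to 2.46, HBEGF from 1.44 to 3.20 and NRG1 from -3.20 to -1.80.

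In the SK-OV-3 family AREG was lower, with a log2 fold change of -3.54 ± 0.418 (adjusted p = 0.0121, edgeR), 1 of 9 members beside 12.1% of all genes. EREG at -4.96 ± 1.26, TGFA at -2.11 ± 0.541, ERRFI1 at -1.41 ± 0.379, HBEGF at -2.63 ± 0.714 and EGFR at -1.52 ± 0.509 did not pass (adjusted p = 0.0558, 0.0571, 0.0639, 0.0650 and 0.104, edgeR). Without SK-OV-3-TR, which leaves the family 1 line, HBEGF and EGFR were at -3.99 and -2.51. Over the fits without 1 line, TGFA reached -3.09 and EREG, with no vehicle count in SK-OV-3-TR, -9.76. The values moved the other way in turn, to -1.62 for HBEGF and -0.71 for EGFR without SK-OV-3, and to -3.72 for EREG and -1.32 for TGFA without SK-OV-3-TR. AREG was not called without OV2008 or C13 (adjusted p = 0.0556 and 0.0688, edgeR), where 242 and 149 of all genes were, against 2263.

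**Figure D3:**
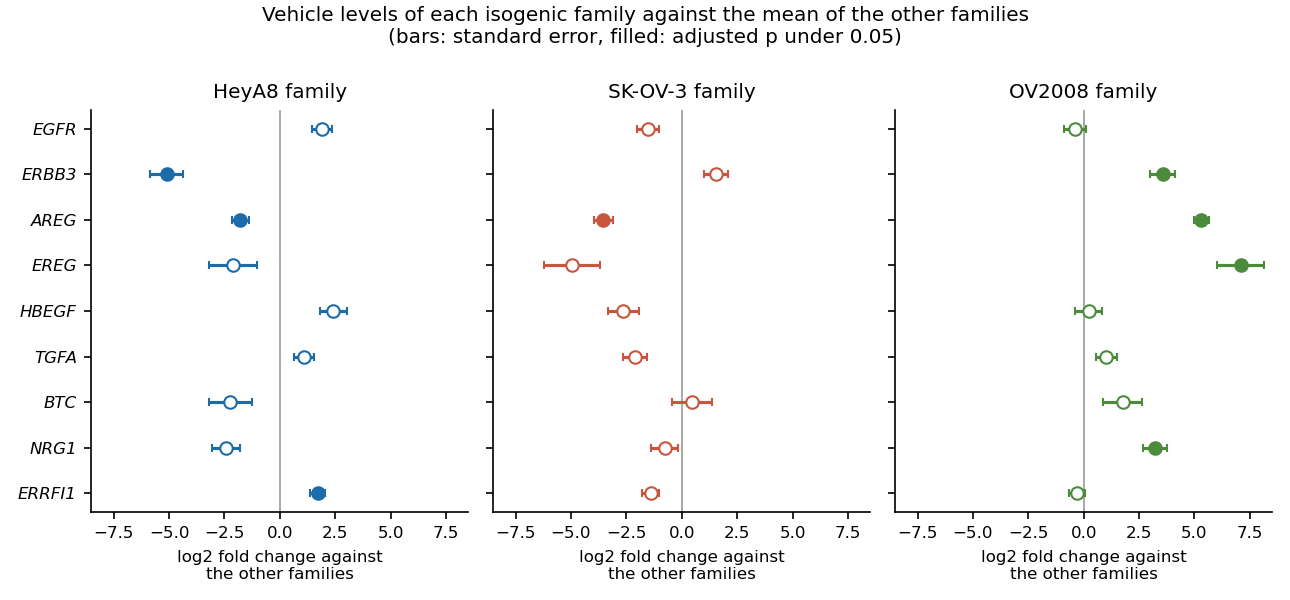
Log2 fold change of each member in a family against the mean of the other families with vehicle, with standard errors. Filled points have an adjusted p under 0.05. AREG, EREG, ERBB3 and NRG1 lie above 3 in the OV2008 family, and ERBB3 lies at -5.11 in the HeyA8 family.

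Of 51 further pathway genes, 50 were tested. Among 17 genes of ERK-induced feedback and output, 5 were higher and 0 lower in the HeyA8 family. In the SK-OV-3 family 0 were higher and 6 lower, and in the OV2008 family 2 were higher and 2 lower. Of all genes, 7.57%, 12.1% and 9.78% were called in the HeyA8, SK-OV-3 and OV2008 families. In the same order, 895, 1491 and 1012 of all genes were higher and 523, 772 and 818 lower. SPRY2 and SPRY4, inhibitors of RAS signalling, were higher in the HeyA8 family at 3.25 ± 0.426 and 2.62 ± 0.363 (adjusted p = 0.0132 and 0.0153, edgeR); they were also the 2 lower genes of the OV2008 family, singled out after their values were seen, at -2.57 ± 0.509 and -2.08 ± 0.418 (0.0362 and 0.0374). DUSP5, an ERK phosphatase, and FOSL1, an AP-1 subunit, were lower in the SK-OV-3 family at -2.82 ± 0.363 and -3.20 ± 0.508 (adjusted p = 0.0127 and 0.0194, edgeR). EGR1, an immediate early factor, and the phosphatase DUSP4 were higher in the OV2008 family at 3.64 ± 0.464 and 3.86 ± 0.759 (adjusted p = 0.0140 and 0.0357, edgeR). The group's median was 1.04, -0.81 and 0.32 in the HeyA8, SK-OV-3 and OV2008 families, beside 0.02, 0.08 and -0.05 over all genes.

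ERBB2 and ERBB4 were the other receptors tested. ERBB4 was called higher in the SK-OV-3 family (adjusted p = 0.0302, edgeR), against 0 counts in both HeyA8 family vehicle libraries. ERBB2 was higher in the SK-OV-3 family at 6.20 ± 0.321 and lower in the HeyA8 and OV2008 families at -3.60 ± 0.366 and -2.59 ± 0.344 (adjusted p = 0.00430, 0.00749 and 0.0158, edgeR). Among 16 adaptor and relay genes, SOS1, an exchange factor of RAS, was the only one called, higher in the SK-OV-3 family at 1.80 ± 0.304 (adjusted p = 0.0227, edgeR).

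Within the isogenic pairs, the resistant lines differed from their parents in different members. In SK-OV-3-TR against SK-OV-3, with vehicle and QC libraries together, 2 members were higher and 4 lower, beside 31.5% of all genes called. NRG1 was at 79.0 and 49.0 CPM in SK-OV-3-TR (vehicle, QC) against 22.4 and 17.3 in SK-OV-3, a log2 fold change of 1.69 ± 0.304 (adjusted p = 0.00142, edgeR). ERBB3 was at 20.4 and 15.1 CPM against 7.23 and 6.48, 1.39 ± 0.287 (adjusted p = 0.00337, edgeR). The NRG1 and ERBB3 libraries of both lines did not overlap. The share of all genes without overlap was not counted for the isogenic pairs, so non-overlap within them only describes the values. Without the SK-OV-3-TR vehicle library ERBB3 was at 0.97 and not called (0.0608).

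TGFA, BTC, EREG and ERRFI1 were lower in SK-OV-3-TR. TGFA was at 10.1 and 8.47 CPM against 45.6 and 40.4 in SK-OV-3, -2.20 ± 0.314 (adjusted p = 0.000290, edgeR), and BTC at 0.944 and 1.11 against 5.35 and 7.84, -2.64 ± 0.400 (0.000444). The EREG call (adjusted p = 0.0105, edgeR) rests on 2 counts against 22, a ratio of 0.0792 with a 95% counting interval of 0.00903 to 0.322, and was lost without either vehicle library (0.0997 and 0.0653). ERRFI1 was at 30.7 and 37.2 CPM against 97.5 and 90.5, -1.49 ± 0.348 (adjusted p = 0.00676, edgeR). Its call was lost without the SK-OV-3-TR QC library (0.0667) or the SK-OV-3 vehicle library (0.0796). TGFA, BTC and ERRFI1 did not overlap between the lines.

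EGFR at 0.58 ± 0.221 and HBEGF at 0.92 ± 0.386 did not pass (adjusted p = 0.0642 and 0.0893, edgeR). Without the SK-OV-3-TR QC library, where they were at 229.6 and 4.82 CPM against 325 and 7.87 with vehicle, they were called at 0.84 and 1.46 (adjusted p = 0.0485 and 0.0290, edgeR). Without the SK-OV-3-TR vehicle library they were at 0.35 and 0.26. EGFR was also called by DESeq2 and with either other filter, and HBEGF without a filter. Each fit without 1 library of this pair called 3208 to 3766 of all genes, against 5897. Relative to RPLP0, a ribosomal protein mRNA, EGFR had the opposite sign, at -0.25, on a scale where the median of all genes was -0.81. Of the other receptors, ERBB4 was at 76.9 and 42.9 CPM in SK-OV-3-TR against 7.77 and 5.35 (3.16 ± 0.429, adjusted p = 0.000287, edgeR), and ERBB2 at 4020 and 3519 against 8518 and 7122 (-1.05 ± 0.234, 0.00527).

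Of the 50 other pathway genes, 5 were higher and 12 lower in SK-OV-3-TR, beside 31.5% of all genes called. Over all genes 3099 were higher and 2798 lower. The feedback and output group had 2 higher and 5 lower, with DUSP4 at -2.92 ± 0.423 and DUSP5 at 1.39 ± 0.247 (adjusted p = 0.000324 and 0.00128, edgeR). Of 6 turnover genes 3 were lower, among them CBLB, a ubiquitin ligase, at -1.43 ± 0.246 and LRIG3 at -2.22 ± 0.330 (0.00106 and 0.000386). The adaptor SHC1 was higher at 1.28 ± 0.229 (adjusted p = 0.00136, edgeR). The median over the 50 genes was -0.27, beside 0.02 over all genes.

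**Figure D4:**
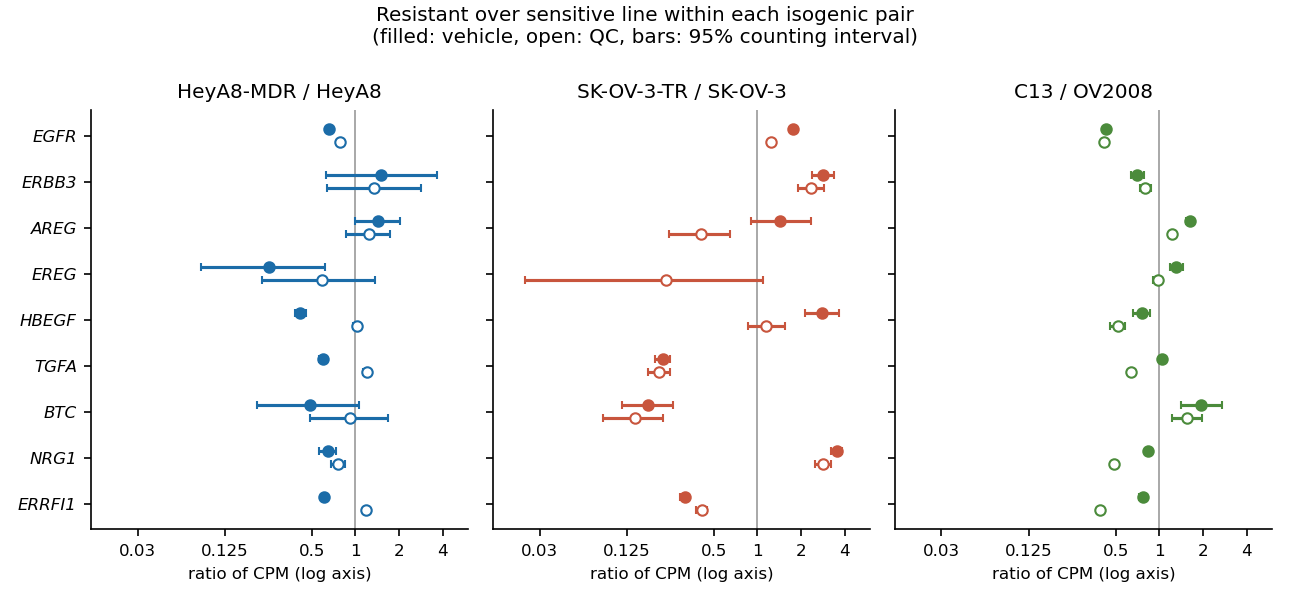
Ratio of CPM in each resistant line over its sensitive parent for the 9 members, on a log axis, with 95% counting intervals that hold no spread between cultures. Vehicle and QC libraries are drawn separately. In the SK-OV-3 pair NRG1 lies at 3.52 and 2.84 and TGFA at 0.222 and 0.210, and in the OV2008 pair EGFR lies at 0.431 and 0.418.

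In C13 against OV2008, 1 of 9 members was called, beside 9.46% of all genes. EGFR was at 287 and 313 CPM in C13 against 665 and 749 in OV2008, a log2 fold change of -1.24 ± 0.223 (adjusted p = 0.00564, edgeR). The lines did not overlap, but the call was lost without the C13 vehicle library (-1.09, adjusted p = 0.0755) or the OV2008 QC library (-1.04, 0.0652). ERRFI1 at -0.98 ± 0.343 and NRG1 at -0.67 ± 0.294 did not pass (adjusted p = 0.0935 and 0.177, edgeR), and ERRFI1 was at -0.21 without the OV2008 QC library and called, at -1.52, without the OV2008 vehicle library (0.0170). Fits without 1 library of this pair called 450 to 791 of all genes, against 1770. AREG and EREG, the ligands that mark this family, were at 0.45 ± 0.361 and 0.16 ± 0.334 (adjusted p = 0.468 and 0.828, edgeR).

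Of the 50 other pathway genes, 2 were higher and 5 lower in C13, beside 9.46% of all genes called. Over all genes 830 were higher and 940 lower. ADAM17, the protease that releases AREG and TGFA, was at 24.1 and 28.7 CPM against 53.9 and 60.8 in OV2008 (-1.12 ± 0.203, adjusted p = 0.00572, edgeR). The ERK phosphatase DUSP6 was lower at -1.73 ± 0.436 and SPRED2, a RAS pathway inhibitor, at -0.98 ± 0.215 (adjusted p = 0.0284 and 0.0160, edgeR). The ligand EPGN was higher at 3.43 ± 0.941 (0.0409), on 142 and 47 counts against 13 and 0.

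In HeyA8-MDR against HeyA8, 0 of 9 members were called by edgeR, which called 4.08% of all genes, and 0 by DESeq2. Over all genes the count rests on single libraries, with 1891 called without the HeyA8 QC library, 362 without the HeyA8-MDR QC library, 100 without the HeyA8 and 27 without the HeyA8-MDR vehicle library, against 763. Unadjusted, 2 of 9 members had a p under 0.05 by edgeR, as had 4298 of all 18720 genes. EGFR was at 1048 and 929.9 CPM against 1609 and 1197 (-0.50 ± 0.221, adjusted p = 0.202, edgeR). EREG, on 6 and 8 counts against 28 and 22, was at -1.39 ± 0.547 (0.155) and ran from -1.99 to -0.74 over the fits without 1 library, called only without the HeyA8 QC library (-1.99, adjusted p = 0.0472, edgeR). HBEGF, TGFA and ERRFI1 had HeyA8-MDR to HeyA8 ratios below 1 with vehicle, at 0.416, 0.592 and 0.604, but not with QC, at 1.03, 1.19 and 1.18. IER3, an immediate early gene, was the only pathway gene called (-1.77 ± 0.414, adjusted p = 0.0372, edgeR).

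Across the 3 pairs with vehicle, 0 of 9 members differed between resistant and sensitive lines by edgeR or DESeq2. ERRFI1 alone had an unadjusted p under 0.05, as had 3.71% of all genes. It was at 99.7 ± 78.9 CPM (SD, n = 3) in resistant and 171 ± 118 in sensitive lines, lower in 3 of 3 pairs (-0.92 ± 0.338, adjusted p = 0.994, edgeR). EGFR was at 553 ± 429 and 819.5 ± 725 CPM and ERBB3 at 15.9 ± 13.4 and 15.1 ± 19.7 (SD, n = 3 each). Resistant over sensitive line in the HeyA8, SK-OV-3 and OV2008 pairs, EGFR was 0.651, 1.76 and 0.431. ERBB3 was 1.49, 2.83 and 0.704, the first on 14 and 11 counts. Neither gene had the same direction in all pairs. The median over the members was -0.35, beside 0.03 over all genes.

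The response to QC was tested with the cell line as a block. By edgeR and by DESeq2, 0 of 9 members were called in sensitive lines, in resistant lines, over all 6 lines and for the difference of the response between both groups. At an unadjusted p under 0.05, edgeR had 1 member in sensitive lines beside 6.59% of all genes, 0 in resistant lines beside 6.03%, 2 over all lines beside 15.2%, and 0 for the difference beside 1.16%. The median log2 change over the members was 0.25 in sensitive and 0.31 in resistant lines, beside 0.02 and -0.01 over all genes.

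AREG had the smallest p. QC over vehicle in OV2008, SK-OV-3 and C13 was 2.81, 2.79 and 2.12, with 95% counting intervals of 2.64 to 3.0, 1.78 to 4.49 and 2.03 to 2.21. The SK-OV-3 ratio rests on 28 and 72 counts. In HeyA8, HeyA8-MDR and SK-OV-3-TR the ratios were 1.09, 0.937 and 0.787, with intervals that held 1. The log2 change was 1.06 ± 0.326 in sensitive lines (adjusted p = 0.621, edgeR), 0.35 ± 0.329 in resistant lines (adjusted p = 0.890, edgeR) and 0.71 ± 0.242 over all lines (adjusted p = 0.208, edgeR).

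The resistant minus sensitive difference for AREG was -0.72 ± 0.459 (adjusted p = 0.9998, edgeR). Without HeyA8 the AREG value was 1.49 in sensitive lines and 0.83 over the remaining lines, and without C13 the resistant value turned to -0.22. With no filter on low counts AREG was called in sensitive lines (adjusted p = 0.0112, edgeR) and over all lines (0.00492).

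EREG was 1.89 with QC over vehicle in OV2008 and 1.40 in C13 (intervals 1.71 to 2.08 and 1.30 to 1.51), and could not be resolved in the other lines. BTC was the only member above 1 in 6 of 6 lines, from 1.10 in HeyA8 to 2.05 in HeyA8-MDR, and 4.13% of all genes tested were. Its intervals lay above 1 in SK-OV-3, OV2008 and C13. Over all lines BTC was at 0.51 ± 0.227 (adjusted p = 0.316, edgeR).

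HBEGF and TGFA had their highest ratios in HeyA8-MDR, 2.43 and 2.09, which took them from 33.9 to 82.2 and from 79.5 to 166 CPM. In HeyA8 the ratios were 0.981 and 1.04, in OV2008 1.40 and 1.72, and in SK-OV-3-TR 0.612 and 0.837. NRG1 was above 1 in HeyA8 (1.27), HeyA8-MDR (1.49) and OV2008 (1.46) and below 1 in SK-OV-3 (0.770), SK-OV-3-TR (0.621) and C13 (0.848), and none of these counting intervals held 1. Over all lines the log2 change was 0.26 ± 0.212 for HBEGF, 0.26 ± 0.174 for TGFA, 0.41 ± 0.266 for EREG and 0.03 ± 0.173 for NRG1 (adjusted p = 0.588, 0.494, 0.479 and 0.959, edgeR). Without HeyA8-MDR, HBEGF and TGFA were at 0.03 and 0.09, and without OV2008 EREG was at 0.19.

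**Figure D5:**
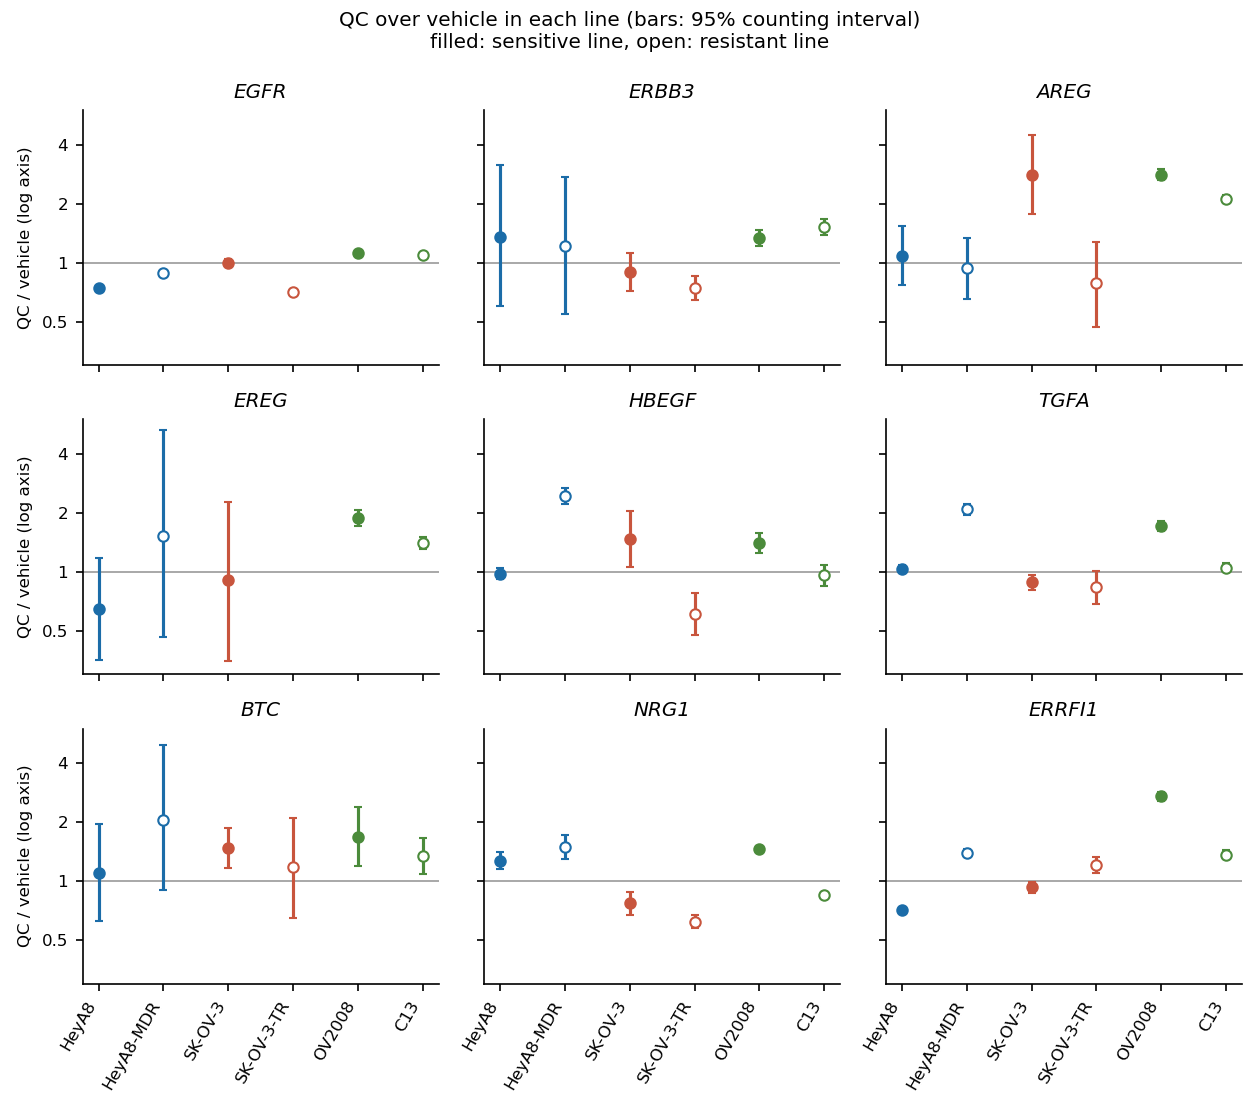
QC over vehicle for each member and line on a log axis, with 95% counting intervals that hold no spread between cultures. Colours tell the families, and symbols sensitive from resistant lines. AREG lies at 2.81 in OV2008, 2.79 in SK-OV-3 and 2.12 in C13, and ERRFI1 at 2.71 in OV2008.

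ERRFI1 with QC over vehicle was 2.71 in OV2008, 1.40 in HeyA8-MDR, 1.36 in C13 and 1.21 in SK-OV-3-TR, and 0.928 in SK-OV-3 and 0.712 in HeyA8. The HeyA8 QC library, at 219 CPM, lay between the vehicle libraries of HeyA8 and HeyA8-MDR, as it did for EGFR, and the part of its position in these ratios was not tested. The log2 change was 0.27 ± 0.302 in sensitive and 0.40 ± 0.292 in resistant lines (adjusted p = 0.891 and 0.857, edgeR). The sensitive value was 0.66 without HeyA8 and turned to -0.30 without OV2008.

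EGFR with QC over vehicle was 0.744 in HeyA8, 0.887 in HeyA8-MDR, 0.996 in SK-OV-3, 0.707 in SK-OV-3-TR, 1.13 in OV2008 and 1.09 in C13, with a log2 change over all lines of -0.13 ± 0.128 (adjusted p = 0.654, edgeR). ERBB3 was 1.52 in C13, 1.34 in OV2008, 0.897 in SK-OV-3 and 0.741 in SK-OV-3-TR, with intervals that held 1 in the HeyA8 family and SK-OV-3, and 0.16 ± 0.180 over all lines (adjusted p = 0.713, edgeR). Without HeyA8 the change over the remaining lines was -0.08 for EGFR, 0.14 for ERBB3, 0.63 for EREG, 0.33 for HBEGF, 0.31 for TGFA, 0.57 for BTC and -0.04 for NRG1. Over the fits without 1 line ERBB3 ran from 0.03 to 0.32 and EGFR from -0.20 to -0.06. The partner ERBB2 was below 1 in 6 of 6 lines, from 0.576 in HeyA8-MDR to 0.932 in C13, as were 4.60% of all genes tested (-0.43 ± 0.135, adjusted p = 0.194, edgeR).

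Of the 50 other pathway genes, 0 were called with QC over all lines by edgeR, while 9 had a higher and 2 a lower level at an unadjusted p under 0.05, beside 15.2% of all genes. In the feedback and output group these were 4 of 17, all higher, led by DUSP5 at 0.49 ± 0.139 and the receptor kinase EPHA4 at 0.83 ± 0.277 (adjusted p = 0.169 and 0.203, edgeR). Of the shedding genes, ADAM9 was at 0.40 ± 0.122 and RHBDF1 at 0.50 ± 0.181 (adjusted p = 0.180 and 0.228, edgeR). The median over the 50 genes was 0.14 on the log2 scale, beside 7.21e-05 over all genes.

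Genes with the most similar pattern were found by Pearson's r of log2 CPM over the 12 libraries, as a description. EGFR was nearest to MAN2B2, C2CD5 and CLDN1 (r = 0.976, 0.970 and 0.966), and ERBB3 to PPL, SULT4A1 and MYO5B (r = 0.994, 0.992 and 0.988). AREG was nearest to IGFL2-AS1, LGALS9B and IRX2-DT (r = 0.986, 0.983 and 0.983), and EREG to FAM83A and ESRP1 (r = 0.989 and 0.986). HBEGF was nearest to CLDN1, MIR503HG and INTS15 (r = 0.980, 0.970 and 0.970), TGFA to TMEM154, PHLDA2 and SLC25A43 (r = 0.977, 0.976 and 0.976), and BTC to RETREG1, RIPPLY3 and ZFP91 (r = 0.960, 0.958 and 0.954). NRG1 was nearest to BICDL2, MAOA and ASCL2 (r = 0.981, 0.979 and 0.978), and ERRFI1 to ETV6, PARP11 and KCTD12 (r = 0.963, 0.959 and 0.947). CLDN1, a tight junction protein, was shared by EGFR and HBEGF, and no member was among the 3 nearest genes of another.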

How the data were processed

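Poly(A) RNA of 12 libraries was sequenced, 1 per line and treatment, and grouped by the labels' line and treatment. The values are raw read counts per Ensembl gene ID deposited by the authors. The submitters' processing notes name STAR 2.7.3a, HTSeq 0.6.1p1 and GRCh38.p13, whereas the study's methods name TopHat, hg19 and HTSeq, so aligner and build are not settled. Strand and annotation are not given in the sources used here. IDs were matched to symbols without their version (58620 of 60669). Exon lengths came from GENCODE 44 and promoters, motifs and positions from RefSeq on GRCh38.p14. No file gave the protein sequences.

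Genes were kept by edgeR's filterByExpr (minimum count 10, total 15), scaled by TMM and tested with edgeR 4.0.16 (R 4.3.3) quasi-likelihood fits, with Benjamini-Hochberg adjustment over all 18720 genes and a threshold of 0.05. QC effects in sensitive and resistant lines used 4 residual degrees of freedom with the line as a block, the QC effect over all lines and the isogenic pairs 5, and families and resistance 2 over vehicle libraries, with a prior count of 2 for log2 CPM. Standard errors are the log2 fold change over the square root of the F statistic. Vehicle and QC libraries of a line come from the same line, and their deviations from their group means correlated at 0.893 to 0.929. No batch is given in the labels. P-values for QC rest on how the response differs between lines. Those for families and resistance rest on how the isogenic pairs depart from a common resistance effect. The lines of a family are a parent and its own derivative, so they are not independent replicates of it. Each isogenic pair compares 1 line with 1 line, against how vehicle and QC libraries of a line depart from the common QC effect. DESeq2 1.42.0, other scalings, other filters, other libraries and fits without each line or library were the alternatives. Counting intervals are exact, at 95%, and cover counting error only.

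The members and gene lists were chosen with earlier results of these data known. Beside the members, ERBB2 and ERBB4, the text names the 2 genes of smallest p in a role group of the pathway list for a comparison it describes, and the 3 genes nearest to each member. Of these, 2 results are not reported here.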

Additional observations from a re-analysis of the deposited data

Results flagged for a closer look

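For some members QC over vehicle was above 1 in both lines of a family and below 1 in both lines of another. For NRG1 none of the counting intervals held 1, but for the other members some did: EGFR in SK-OV-3 (0.954 to 1.04), TGFA in HeyA8 (0.989 to 1.09), C13 (0.995 to 1.10) and SK-OV-3-TR (0.690 to 1.01), and ERBB3 in HeyA8 (0.604 to 3.16), HeyA8-MDR (0.550 to 2.73) and SK-OV-3 (0.714 to 1.13). These differences between families were not tested, each family having 2 lines. The mean log2 change with QC in the SK-OV-3 family minus that in the HeyA8 family was -0.99 for NRG1, -0.77 for TGFA and -0.61 for ERBB3, where the HeyA8 family had at most 18 counts per library. Of all genes tested, 10.4% split these families in this way. The OV2008 minus HeyA8 family value was 0.45 for EGFR, beside 14.4% of genes with such a split. The OV2008 minus SK-OV-3 family value was 0.80 for ERBB3, 0.64 for TGFA and 0.40 for EGFR, beside 16.1% of genes. No member separated all sensitive from all resistant lines by the sign of its change.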

How the results depend on the processing

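Of 500 values of single genes with a test recomputed under an alternative, 408 kept their direction and their side of the threshold, 32 lost it, 55 gained it and 5 changed sign. Members called in the HeyA8 family comparison numbered 7 without a filter, 6 with at least 10 counts in every library, 6 by DESeq2, 5 with QC libraries in place of vehicle and 9 with all 12 libraries, against 3. In the SK-OV-3 family they numbered 6, 4, 7, 6 and 8, against 1. The fit on all 12 libraries counts vehicle and QC libraries of a line as separate samples, although they go together, so that its n exceeds the number of lines and its p-values are too small. With no filter AREG was called in sensitive lines and over all lines (1 and 1 members, against 0), and in C13 against OV2008 2 members were called without a filter and 2 by DESeq2. The causes were not tested.

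Leaving out 1 line, pair or library gave 0 to 7 members in the HeyA8, 0 to 3 in the SK-OV-3 and 0 to 4 in the OV2008 family, where a family left with 1 line borrows its spread from the other lines. For the isogenic pairs, where each library was left out in turn, a choice made after seeing the data, it gave 0 to 1 in HeyA8-MDR, 4 to 7 in SK-OV-3-TR and 0 to 2 in C13, and 0 to 0 for QC and for resistant against sensitive lines. Signs changed, over these fits, for ERRFI1 with QC in sensitive lines (-0.30 to 0.66), AREG in resistant lines (-0.22 to 0.60) and NRG1 over all lines (-0.09 to 0.17; -0.04 without HeyA8, -0.0922 without HeyA8-MDR and -0.08 without OV2008). Without the replicate block 0 members were called for QC or resistance, and 117 genes had an unadjusted p under 0.05 with QC over all lines, against 2840.

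Counts over all genes also moved. Those without a filter are of 39590 genes for QC and the isogenic pairs and of 36276 for families and resistance. Those with at least 10 counts are of 12070 genes for the families, and the others below of 18720. DESeq2 called 32 genes with QC in sensitive lines, 522 over all lines, 1 for the difference and 48 for resistance, and no filter 195, 791, 5 and 146, and 35 with QC in resistant lines, where edgeR with the filter called 0. All 12 libraries gave 32 for resistance. For HeyA8-MDR the counts were 1793 and 2030 against 763, and for C13 2675 by DESeq2 against 1770. For the HeyA8, SK-OV-3 and OV2008 families they were 3810, 5089 and 4611 by DESeq2, 3415, 4672 and 4153 without a filter and 8483, 9760 and 8722 with all 12 libraries, against 1418, 2263 and 1830, and the HeyA8 count was 2178 with QC libraries and 919 with at least 10 counts. Relative to RPLP0 the median of all genes moved to 0.29 with QC in sensitive lines, -0.81 in SK-OV-3-TR, -1.15 in the HeyA8 and 0.96 in the SK-OV-3 family, and no called member changed sign. Library size alone moved it to 0.17 in C13, -0.20 in the HeyA8 and 0.32 in the SK-OV-3 family. The genes called higher were then 1068 of 1668 in C13, from 830 of 1770, and 1934 of 2512 in the SK-OV-3 family, from 1491 of 2263. Depth limits EREG and AREG outside OV2008 and C13, BTC in the HeyA8 family and SK-OV-3-TR, and ERBB3 in the HeyA8 family.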
